A study of Drosophila melanogaster with 48 samples.

Results

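Integrins are cell surface receptors, each made of an alpha and a beta subunit, that bind extracellular matrix outside the cell and link to actin inside it. In flies they are best known for holding muscles to tendon cells and the wing surfaces to each other, and hemocytes use them to spread and migrate. Talin binds the beta tail and connects it to actin, and focal adhesion kinase signals from the same sites. The 6 genes described here are the alpha subunit genes if (inflated, alphaPS2), mew (multiple edematous wings, alphaPS1) and scb (scab, alphaPS3), the beta subunit gene mys (myospheroid, betaPS), the talin gene rhea and the focal adhesion kinase gene Fak. They are 6 of 13946 protein-coding genes on the 7 chromosomes used. The genes were selected on measured values, with the peak lists of these data already known, so their regions are described and not tested.

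The assay was ATAC-seq, which cuts accessible chromatin with a transposase, on S2 cells, a hemocyte-like Drosophila culture line. The samples form 24 groups of 2 libraries, with cells taken 48 h after CuSO4 addition except in the 3 titration groups at 0 uM, which received none. The S2-Grh, S2-Zld and S2-Twi lines express full-length Grainyhead (Grh, an epidermal regulator), Zelda (Zld, an activator of the early embryonic genome) or Twist (Twi, a mesoderm regulator) under copper. S2-Grh-DBD and S2-Zld-DBD express the DNA-binding domain (DBD) alone, and S2-WT cells carry none of these. The main Grh list covers S2-Grh and S2-WT at 100 uM, the main Zld list S2-Zld and S2-WT at 1000 uM, and the main Twi list S2-Twi and S2-WT at 40 uM. The main DBD lists pair S2-WT with S2-Grh-DBD at 20 uM and with S2-Zld-DBD at 100 uM. The titration lists cover S2-Grh at 0, 25, 100 and 400 uM, S2-Zld at 0, 500, 1000 and 1500 uM and S2-HA-Twi (Twi with an HA tag) at 0, 10, 40 and 160 uM. Libraries of S2-Grh-DBD at 80 uM and S2-Zld-DBD at 400 uM also exist, but the labels do not say which libraries the 2 lists of DBD titrations were made from.

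The values are the authors' peak calls. Each list pools several libraries. Values for single replicates or doses were therefore not at hand, the depth is unknown, and conditions were not tested against each other. A main list includes cells without the factor and a titration list includes cells without copper, so a region in a factor's lists may also be open without that factor. Regions of the 10 lists that overlapped by at least 1 bp were merged, which gave 82962 merged regions, called regions below. The lists held between 25397 (HA-Twi titration) and 71754 (Twi main) of the authors' regions, and their median fold enrichment (a peak's signal over its background, as the authors' caller gives it) ranged from 1.76 in the Twi main list to 5.60 in the HA-Twi titration list. Fold enrichments are therefore given beside their percentile in the same list, the share of that list's regions with a lower value. All 10 hemocyte markers examined had a region of all 10 lists in the gene or within 5 kb, and of 6 muscle and tendon markers 4 did, with Mhc and Mp20 having none. Since 80.6% of all protein-coding genes had such a region, these counts say little about cell identity.

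A total of 116 regions had a summit inside the 6 genes or within 5 kb of them. The genes differ in length, from 6.60 kb for Fak to 44.1 kb for mew. On the dm6 assembly, if lies at X:16752189-16783434, mew at X:13214409-13258490, scb at 2R:15248784-15258498, mys at X:8061645-8070237, rhea at 3L:8545001-8574409 and Fak at 2R:19430659-19437259. Strand and exons were not used here, so positions are given from the end with the lower or the higher coordinate, and promoters, exons and introns were not told apart. At the limit of 5 kb, the farthest summit inside lay 4951 bp from mys, in a region of all 10 lists. The nearest summits outside lay 5015 bp from mew (a region of 8 lists) and 5039 bp from Fak (a region of all 10 lists).

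Regions shared by every list occurred at all 6 genes. Of the 116 regions, 39 were found in all 10 lists (33.6%), where 20.5% of all merged regions were. The genes were chosen with these lists known and neighbouring regions share a gene, so nothing is read from that difference. All 6 genes had at least 1 such region, as did 80.6% of all protein-coding genes. Counts were 9 for mew, 8 for if, 8 for mys, 7 for scb, 4 for rhea and 3 for Fak, beside a median of 3 over all protein-coding genes. Per kb of gene and flanks this order changed, to 0.430 for mys, 0.355 for scb, 0.194 for if, 0.181 for Fak, 0.166 for mew and 0.101 for rhea, beside a median of 0.191 over all protein-coding genes. The values of mys and scb lay highest above that median, and those of Fak, mew and rhea lay below it.

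A region was called tied to a factor when the factor's main and titration lists both held it and all 4 main and titration lists for the remaining full-length factors lacked it. By that rule 10 of the 116 regions were tied: 3 to Grh (2.59%), 4 to Zld (3.45%) and 3 to Twi (2.59%). Of all merged regions, 0.827% were tied to Grh, 0.385% to Zld and 0.333% to Twi. Of all protein-coding genes, 9.06% had a Grh-tied region in the gene or within 5 kb, 4.24% a Zld-tied and 3.76% a Twi-tied one. Among the 6 genes, 2 had a Grh-tied region (if and Fak), 2 a Zld-tied region (if and mew) and 2 a Twi-tied region (if and rhea). The rule that chose the genes used these same lists, so nothing is read from the difference between the members and all genes or all merged regions. No tied region occurred at scb or mys by this rule. With main lists alone, scb had a Twi-tied region and mys had Grh-tied and Zld-tied ones. With summits within 150 bp joined, scb had a Grh-tied region. The counts of tied regions depend strongly on which lists are asked for, and a demand for a −log10 q (strength of the call) of at least 10 left 1 Grh-tied and 0 Zld-tied regions.

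**Figure D1:**
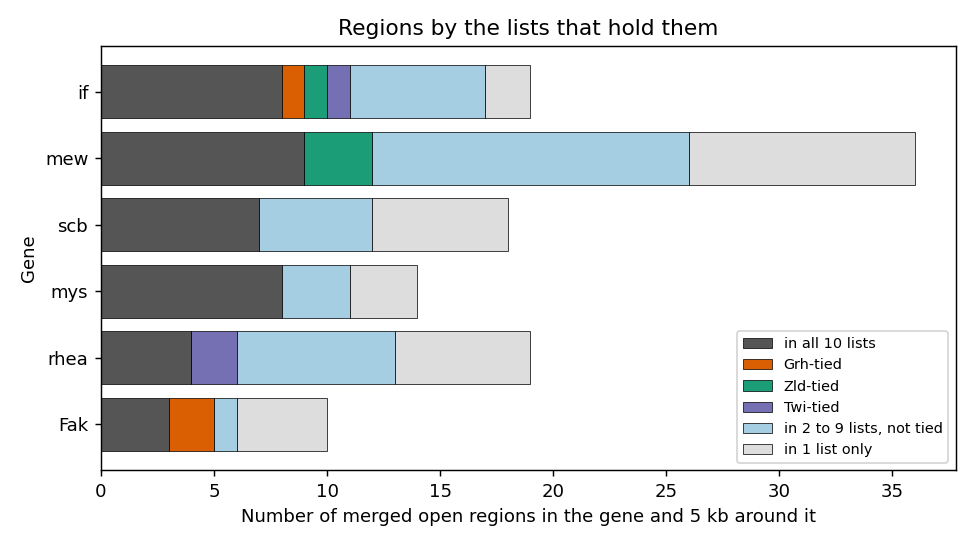
Number of merged open regions (x axis) in each gene and 5 kb around it (y axis), coloured by the lists that hold them. Regions of all 10 lists number 3 to 9 per gene, and tied regions occur at if, mew, rhea and Fak, with none at scb or mys.

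The remaining regions were 36 found in 2 to 9 lists without being tied, and 31 found in 1 list. Of the latter, 15 came from the Twi main list, the longest. Regions in exactly 9 lists numbered 3, at mew, scb and mys, and leaving out each list in turn gave between 39 and 41 common regions. Every region found in a DBD list was also in a full-length list. Of the 45 regions in all 6 full-length lists, 39 were in all 4 DBD lists and 6 in some of them. The Twi main list alone held 83.4% of all merged regions. Shares over the series were not taken for the counts in this paragraph, so nothing is read from them.

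**Figure D2:**
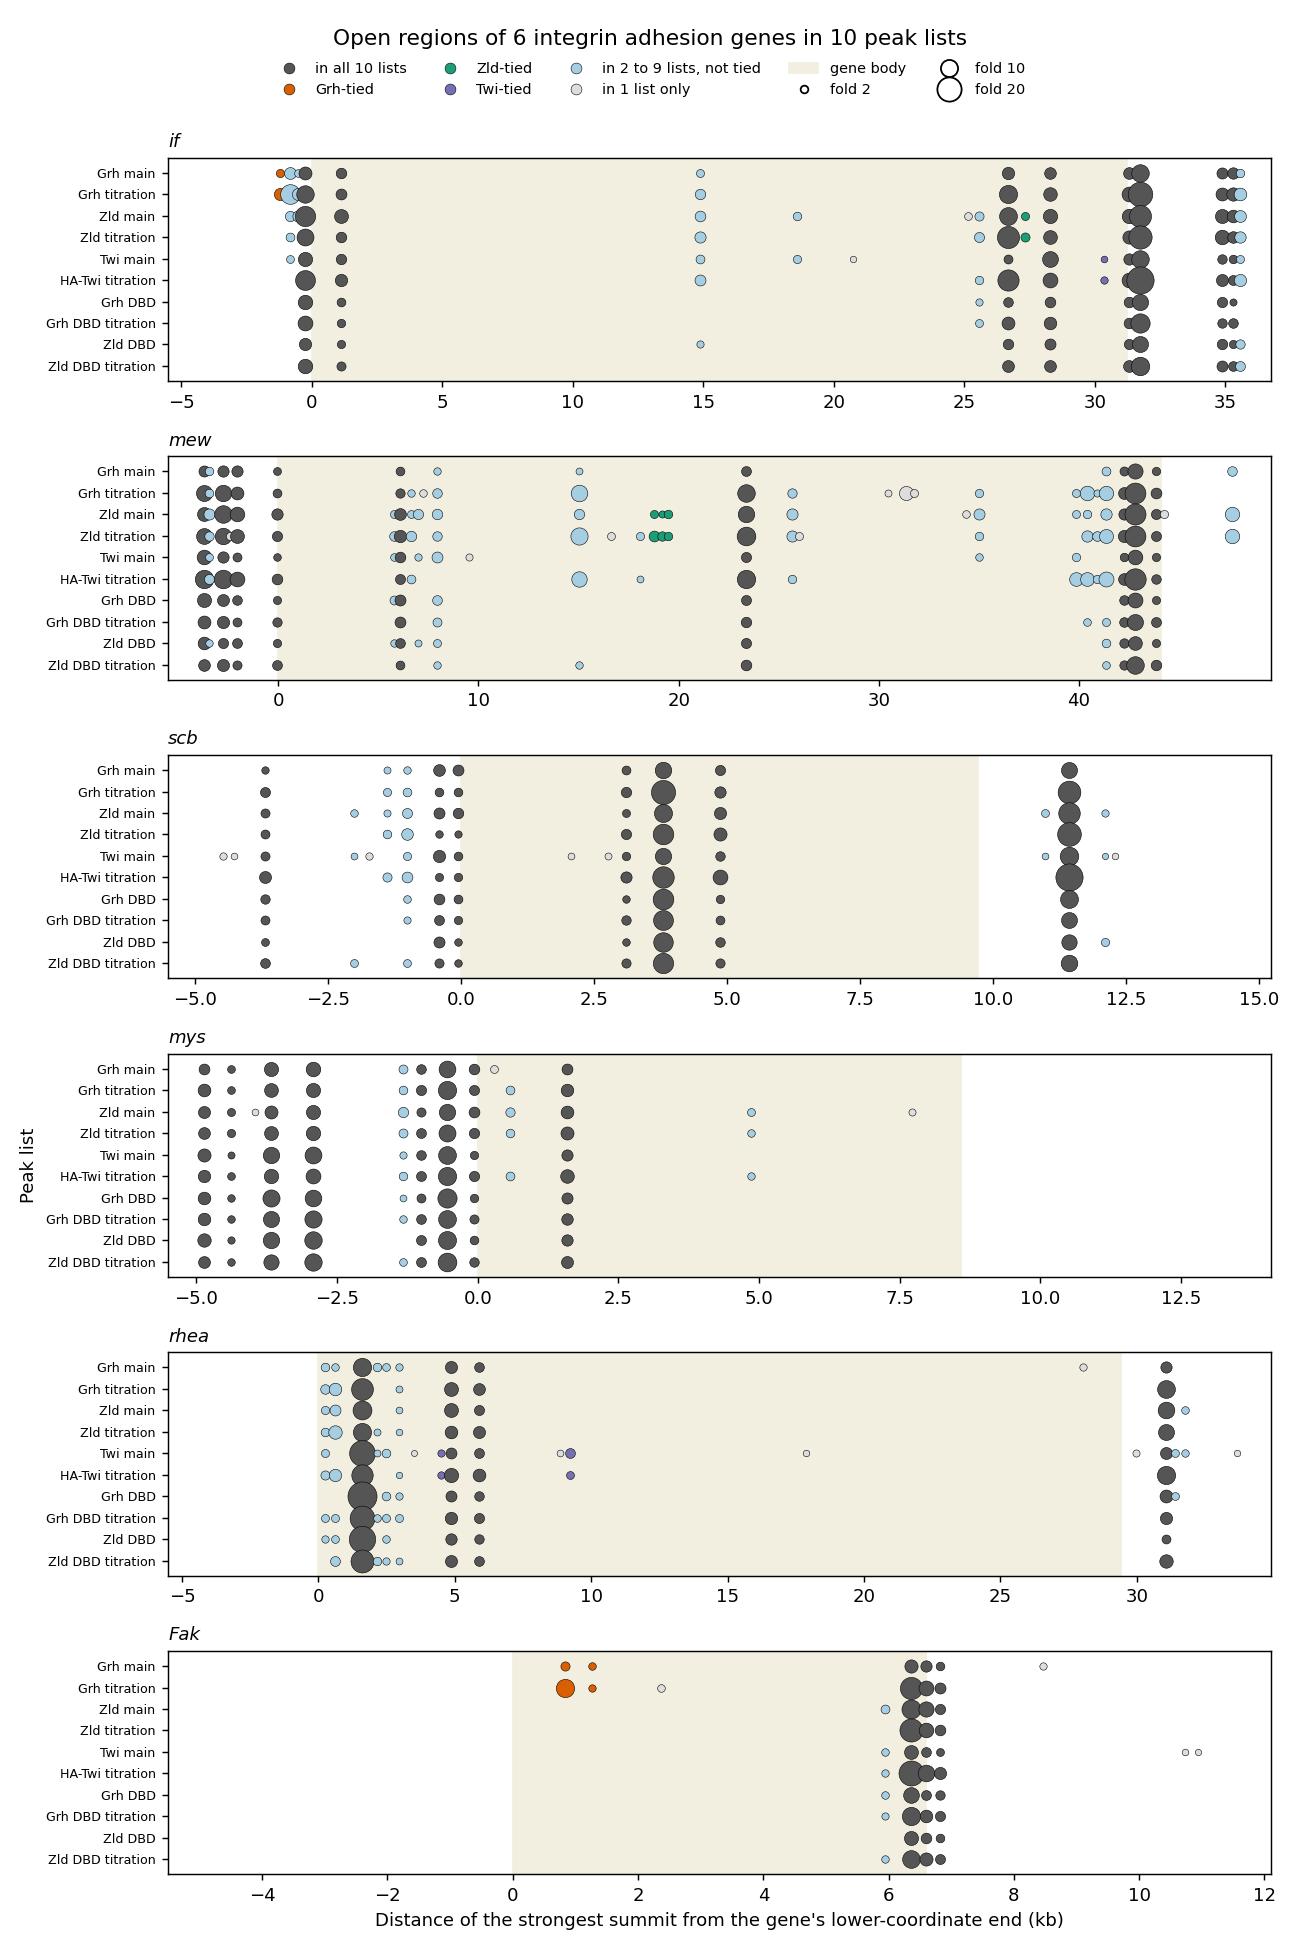
Regions of each gene by distance of the region's strongest summit from the gene's lower-coordinate end (x axis, kb) in each of the 10 lists (y axis), with dot area proportional to the authors' fold enrichment. Regions of all 10 lists appear as full columns of dots, and the 10 tied regions as pairs of dots in the colour of their factor.

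The alpha subunit gene if, which pairs with mys at muscle attachments, held tied regions of all 3 factors. By the same rule 11 protein-coding genes did so. This rests on weak calls. At a −log10 q of at least 10 if had no tied region, and with the same number of regions in each list it had a Grh-tied one alone. The gene body of if, without flanks, held no Grh-tied region. It had 19 regions, of which 8 were in all 10 lists. These 8 lay in 2 zones, with 2 of them from 257 bp below to 1105 bp inside the lower-coordinate end, and 6 from 26658 bp into the gene to 4055 bp beyond its other end. The strongest region common to all lists was chosen as the one with the highest median percentile. For if it was X:16783828-16784038, 498 bp beyond the higher-coordinate end and inside no gene. Its fold enrichment was 10.5 in the Grh main list, 20.6 in the Grh titration, 16.5 in the Zld main, 18.5 in the Zld titration, 10.5 in the Twi main and 25.4 in the HA-Twi titration list. The DBD lists gave 9.02 and 12.7 for Grh (main and titration) and 8.78 and 11.7 for Zld. It stood at percentile 95.4 to 96.8 in the full-length lists and 87.4 to 92.9 in the DBD lists. Another common region, X:16778414-16779056 inside if, ranged from 2.76 (Twi main) to 16.6 (Zld titration) and reached 15.4 in the HA-Twi and 11.3 in the Grh titration lists.

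The Grh-tied region of if was X:16750822-16751014, 1236 bp below the lower-coordinate end and inside the neighbouring gene goe. Fold enrichment was 2.34 in the Grh main list (percentile 52.4) and 5.13 in the titration list (percentile 54.1). The next region towards if, X:16751184-16751464, was in both Grh lists, both Zld lists and the Twi main list. It had 4.81 in the Grh main and 13.2 in the Grh titration list, against 3.61 and 2.64 in the Zld lists and 2.12 in the Twi main list. The one after it, X:16751588-16751709, was in both Grh lists (2.06 and 5.08) and the Zld main list (4.27). These 3 neighbours were absent from all DBD lists, and the common region after them, X:16751830-16752067, was in every list with 5.16 to 14.0.

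The other tied regions of if were weak. Its Zld-tied region lay inside the gene at X:16779450-16779540, with fold enrichments of 2.28 in the main list (percentile 20.8) and 2.82 in the titration list (percentile 28.8). The Twi-tied region, X:16782517-16782604, lay 876 bp inside the higher-coordinate end, with 1.53 in the Twi main list (percentile 27.6) and 1.87 in the HA-Twi titration list (percentile 4.77). All 4 values stood below the median of their lists.

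The alpha subunit gene mew, whose product pairs with mys as a laminin receptor in flies, had the most regions, 36, in the longest gene. Of these, 9 were in all 10 lists, and 4 of the 9 lay below the lower-coordinate end, inside the neighbours sno and REG. The strongest common region, X:13257083-13257376, lay 1286 bp inside the higher-coordinate end. Its fold enrichment was 7.85 in the Grh main, 14.8 in the Grh titration, 15.1 in the Zld main, 14.8 in the Zld titration, 7.34 in the Twi main and 15.6 in the HA-Twi titration list. In the DBD lists it had 7.62 and 8.72 for Grh and 6.40 and 10.5 for Zld, and its percentile ran from 83.3 to 94.4 over the 10 lists.

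Zld-tied regions of mew numbered 3 and lay beside each other, 18.8 to 19.4 kb into the gene. They were X:13232867-13233341 with fold enrichments of 2.25 (main) and 3.97 (titration), X:13233457-13233656 with 1.72 and 3.02, and X:13233778-13233885 with 2.49 and 2.46. By the same rule 7 protein-coding genes had 3 or more Zld-tied regions. In the main list their −log10 q was 4.32, 1.38 and 5.93, so none was left at a minimum of 10, and with the same number of regions in each list 1 Zld-tied region was left at mew. In the titration list the first of them ranked 16 among the 319 Zld-tied regions of the series, but in the main list it ranked 150.

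Some regions of mew with higher values were not tied to a factor. X:13229185-13229681, 15040 bp into the gene, had 9.36, 10.1 and 8.07 in the Grh, Zld and HA-Twi titration lists. The main lists gave 1.64 for Grh and 3.67 for Zld, and it was not in the Twi main list. The Zld DBD titration list held it with 1.92. A region 31374 bp into the gene, X:13245648-13245911, was in the Grh titration list alone, with 6.78, and is not counted as tied because the Grh main list lacks it. Beyond the higher-coordinate end, inside comt, X:13262016-13262176 had 7.11 and 7.16 in the Zld lists and 3.17 in the Grh main list, and was in no other.

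The alpha subunit gene scb, which flies use in dorsal closure and in hemocytes, had 18 regions and, by the rule above, none tied to a factor. It lies beside ItgaPS4, another alpha subunit gene, and 4 of its 18 regions had their strongest summit inside that gene. The strongest common region of scb, 2R:15252386-15253159, was 774 bp wide and lay 3805 bp inside the lower-coordinate end. Fold enrichments were 9.28 and 19.8 in the Grh lists (main and titration), 11.1 and 14.4 in the Zld lists and 9.05 and 15.7 in the Twi lists. The Grh DBD lists gave 14.5 and 13.4 and the Zld DBD lists 13.0 and 14.0. The region stood between percentile 86.2 (HA-Twi titration) and 95.8 (Grh titration). A second strong region, 2R:15259878-15260414, lay 1718 bp beyond the higher-coordinate end inside ItgaPS4, with 8.04 to 25.3 over the lists. All 6 regions of scb found in 1 list came from the Twi main list, the longest, which held 83.4% of all merged regions.

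The beta subunit gene mys, the partner of all 3 alpha subunits above, had 14 regions, and 8 of them were in all 10 lists. Of these, 7 had their strongest summit below the lower-coordinate end, 6 of them inside the neighbour fs(1)h, and 1 lay inside mys. Without the flanks, only 1 common region was left. The strongest, X:8060918-8061235, lay 545 bp below that end inside fs(1)h. Its fold enrichment was 9.61 and 11.4 in the Grh lists, 9.10 and 9.86 in the Zld lists, 10.8 and 11.4 in the Twi lists, 12.6 and 10.8 in the Grh DBD lists and 11.1 and 12.0 in the Zld DBD lists. The values span a narrow range, although the percentile ran from 75.9 in the HA-Twi titration list to 96.9 in the Twi main list. The region at the gene end itself, X:8061438-8061719, had 2.36 to 4.02, and the one inside mys, X:8062987-8063490, had 4.05 to 6.30. A region of 4 lists, X:8062156-8062246, was in the 3 full-length titration lists and the Zld main list, with 2.53 to 2.96.

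**Figure D3:**
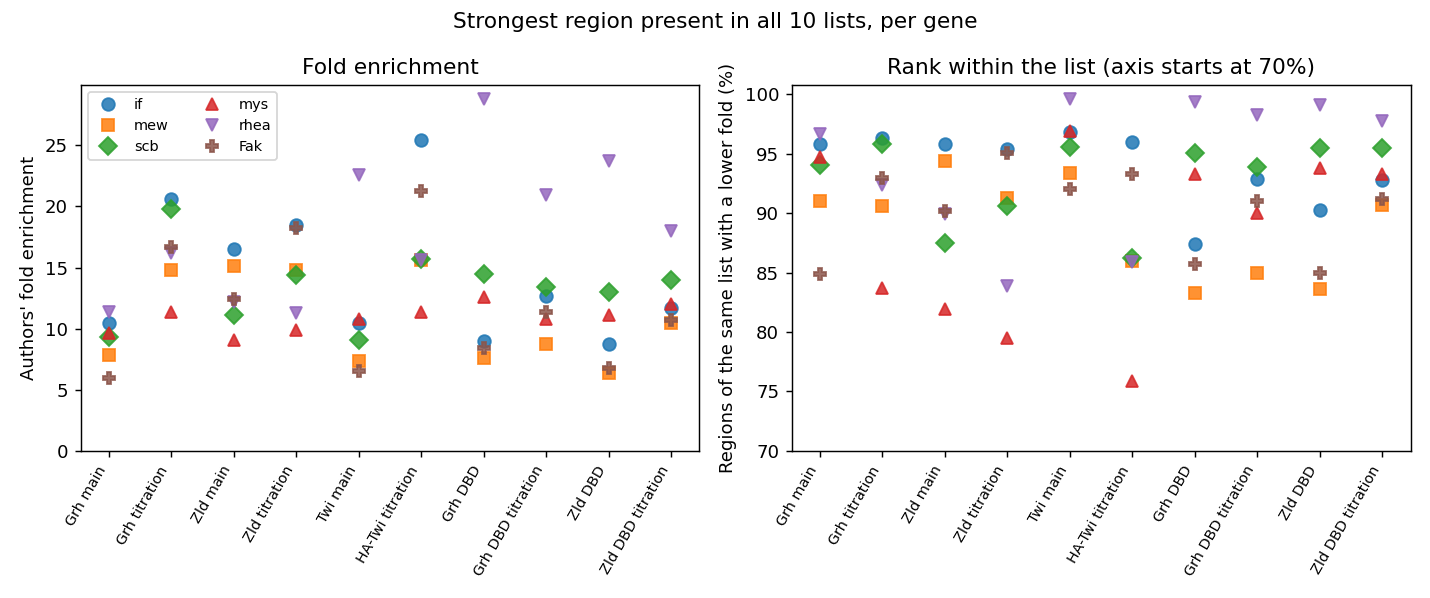
The strongest region of each gene among those present in all 10 lists (x axis), as the authors' fold enrichment (left) and as the percent of regions of the same list with a lower fold enrichment (right, on an axis that does not start at 0). The rhea region reaches 28.8 in the Grh DBD list, and the mys region lies between 9.10 and 12.6 in every list.

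The talin gene rhea had 19 regions, 4 of them in all 10 lists. Its strongest common region, 3L:8546250-8546732, 1585 bp inside the lower-coordinate end, was also the strongest of the 6 genes in 6 of the lists. Fold enrichment was 28.8 in the Grh DBD list, 20.9 in the Grh DBD titration, 23.7 in the Zld DBD, 18.0 in the Zld DBD titration and 22.6 in the Twi main list. The HA-Twi titration list gave 15.6, the Grh lists 11.4 and 16.2 and the Zld lists 12.2 and 11.3. The percentile was 97.8 to 99.6 in the DBD lists and the Twi main list, and 83.9 to 96.7 in the other 5. Lists differ in length and pooled libraries, so this order is not read as a change. Another 2 common regions inside the gene, 3L:8549691-8550438 and 3L:8550698-8551417, were 748 and 720 bp wide with 4.10 to 6.98 and 3.05 to 5.56. The fourth, 3L:8575961-8576170, lay 1654 bp beyond the higher-coordinate end inside CG6638, with 2.73 to 11.4.

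Both Twi-tied regions of rhea lay inside the gene. The wider, 3L:8554044-8554552, 9228 bp from the lower-coordinate end, had a fold enrichment of 3.30 in the Twi main list (percentile 80.4, −log10 q 55.0) and 2.14 in the HA-Twi titration list (percentile 9.50, 11.9). The other, 3L:8549476-8549570, was 95 bp wide, with 1.82 (percentile 53.5) and 1.87 (percentile 4.78), and lay beside a common region. Both had a −log10 q above 10 in both lists, unlike the Twi-tied region of if. Of the other regions of rhea, 5 were in the Twi main list alone, the longest list, with fold enrichments of 1.25 to 1.74.

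The kinase gene Fak had 10 regions, 3 of them in all 10 lists and all within 240 bp of the higher-coordinate end. The strongest, 2R:19436807-19437118, had fold enrichments of 5.96 and 16.7 in the Grh lists, 12.4 and 18.2 in the Zld lists and 6.56 and 21.3 in the Twi lists. In the DBD lists it had 8.38 and 11.4 for Grh and 6.75 and 10.7 for Zld, and its percentile was 84.9 to 95.1.

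At the opposite end, Fak held the tied region with the highest fold enrichment in a titration list among the 6 genes; in the main lists the wider Twi-tied region of rhea had a higher one. The Grh-tied region 2R:19431145-19431667, 828 bp inside the lower-coordinate end, was 523 bp wide, with a fold enrichment of 2.88 in the Grh main list (percentile 62.7, −log10 q 12.6) and 11.4 in the Grh titration list (percentile 83.6, 172). It ranked 69 and 33 among the 686 Grh-tied regions of the series in these lists. The second one, 2R:19431904-19431986, was 83 bp wide and weak, with 1.97 and 1.87 and a rank of 311 and 654. Neither region was in a Grh DBD list. A further region nearby, 2R:19432980-19433047, was in the Grh titration list alone, with 2.01. Of all genes, 161 had 2 or more Grh-tied regions.

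**Figure D4:**
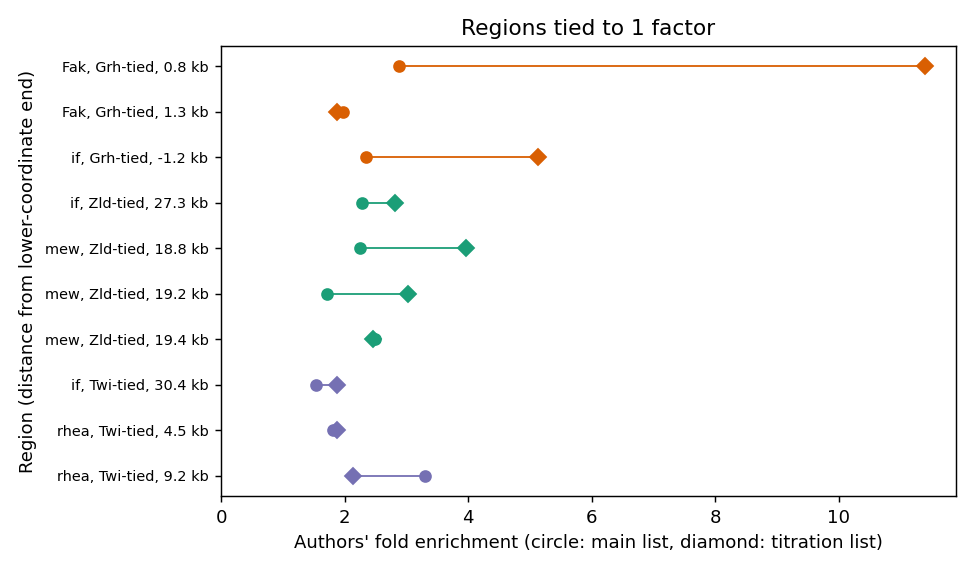
Authors' fold enrichment (x axis) of the 10 tied regions in the main list (circle) and titration list (diamond) of the factor they are tied to, 1 region per row (y axis, with distance from the lower-coordinate end in kb). The Fak region at 0.8 kb reaches 11.4 in the Grh titration list, while the 3 Twi-tied regions stay at or below 3.30.

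The rule for a tied region did not use its position within the gene and flanks. Regions were placed by their strongest summit. Of the 10 tied regions, 9 lay inside the gene, against 17 of the 39 common regions. Within 1 kb of a gene end lay 2 of the 10, against 12 of the 39. At scb and mys, which had no tied region, the gene made up 9.71 of 19.7 kb and 8.59 of 18.6 kb searched. It made up 31.2 of 41.2 kb at if, 44.1 of 54.1 kb at mew, 29.4 of 39.4 kb at rhea and 6.60 of 16.6 kb at Fak. Shares over all tied or common regions of the series were not taken, so nothing is read from these positions. Widths of the tied regions ran from 83 to 523 bp, with a median of 150 bp, against a median of 238 bp for the common regions of the 6 genes. A merged region spans all the lists that hold it and can only widen as lists are added. Common regions must also hold the 200 bp windows of the DBD titration lists, a minimum width that these tied regions lack. Nothing is therefore read from that difference. Over the series the medians were 209 bp for Grh-tied, 134 bp for Zld-tied, 186 bp for Twi-tied and 298 bp for common regions. No tied region of the 6 genes overlapped a DBD list. Of all tied regions of the series, 3.35% for Grh, 8.78% for Zld and 24.3% for Twi overlapped 1 or more DBD lists, so an absence is usual. Main and titration fold enrichments of all tied regions had medians of 1.93 and 4.55 for Grh, 2.24 and 2.24 for Zld and 1.97 and 2.28 for Twi. Positions and widths were not compared by a test, since neighbouring regions share a gene.

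In the wider integrin pathway, all 7 integrin subunit genes, all 23 adaptor and kinase genes and all 10 extracellular ligand genes examined had a region of all 10 lists in the gene or within 5 kb, beside 80.6% of all genes. The median number of such regions per gene was 7 for subunits, 8 for adaptors and kinases and 4.50 for ligands, beside 3 over all genes. Apart from if and mew, the only subunit gene with a tied region was ItgaPS5, with a weak Zld-tied one at 2R:23553307-23553400 (1.62 and 1.87, main and titration).

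Among adaptors and kinases, 5 of 23 had a Grh-tied region, 0 a Zld-tied and 2 a Twi-tied one, beside 9.06%, 4.24% and 3.76% of all protein-coding genes. The Grh-tied regions lay at Fak, at parvin (a partner of integrin-linked kinase; 3.04 and 6.93), at the PDZ-LIM gene Zasp52 (1.68 and 3.88), at Lasp, which encodes an actin-binding protein (1.60 and 4.01), and at the scaffold gene p130CAS (1.83 and 2.53). Besides rhea, C3G, an exchange factor for Rap1, had a Twi-tied region (1.90 and 3.19).

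Of 10 ligand genes, 2 had a Grh-tied region, 0 a Zld-tied and 5 a Twi-tied one, where the shares of all protein-coding genes were 9.06%, 4.24% and 3.76%. The laminin alpha gene wb had 4 Grh-tied regions, the strongest with 2.96 and 9.36. The perlecan gene trol had a Grh-tied region with 2.92 and 10.1. The collagen IV gene vkg had the strongest Twi-tied region of the 3 lists of pathway genes, 2L:5022673-5023039, with 4.51 and 5.07, and its neighbour Col4a1 shares another with it (1.42 and 1.86). The laminin gene LanA (1.91 and 1.49), trol (3 regions, the highest at 2.38 and 2.56) and wb (1.89 and 1.89) had the other Twi-tied regions. These lists were drawn up with earlier results known, and many of the genes are long, so the counts are not read as a property of the pathway.

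Genes were compared by their highest fold enrichment per list relative to the list's median, on a log2 scale over the 10 lists. Those compared were the 11332 with a region in each list, not always the same region. The most similar genes were found for each member. They were CG33775 and Cyp301a1 for if (distance 0.291 for each), caz and COX4 for mew (0.364 and 0.374), ru and Pka-R2 for scb (0.323 and 0.362) and pip and CG43389 for mys (0.241 and 0.367). For rhea they were pnr and dsf (0.426 and 0.434), and for Fak pns and Iml1 (0.370 and 0.416). The median distance of the compared genes from a member ranged from 1.82 (mew) to 3.15 (rhea). The highest value can come from a region inside a neighbouring gene. For mys it came from the region inside fs(1)h in all 10 lists. For scb it came from the region inside ItgaPS4 in the full-length Zld lists and the Twi lists.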

How the data were processed

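Files of peak calls on dm6 were deposited, 10 in all. Bowtie2, MACS2, featureCounts, DESeq2 and deepTools 3.5.1 are listed per the submitters' processing notes, with neither role nor setting. For every peak the deposited columns hold a fold enrichment, which is a ratio, a −log10 q with a minimum of 1.30 in every list, and a score derived from it. No source used here states the read shift or depth. DBD titration windows of 200 bp have no summit, so midpoints were used.

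Summits of 1 numbered peak were joined. Genes, with their ends, come from RefSeq's Release 6 table (all 6 symbols matched, and all those of the gene lists). The members and gene lists were chosen with earlier results of these data known. All 6 members are named, with their tied regions and strongest common region, pathway genes with a tied region, and the 2 most similar genes per member (Euclidean distance, windows not overlapping the member's); regions beyond these were named after their values were seen. Motifs, promoters and distance to gene starts were planned but not run, since no sequence or strand was used here. The merging of regions was tested on simulated regions set far apart, so the joining or splitting of close neighbours was not tested. Tools were numpy 2.4.6 and scipy 1.17.1 for the statistics, pandas 2.3.3 for joining, and matplotlib 3.10.9 for figures, under Python 3.11.15.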

Additional observations from a re-analysis of the deposited data

How the results depend on the processing

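No paired analysis was possible because no list holds values of single libraries, and for the same reason no replicate could be left out. The 39 regions of all 10 lists became 23 at a −log10 q of at least 10. In the gene body alone they became 18, where a summit of any list counts and not only the strongest. Flanks of 2 and 10 kb gave 29 and 53, and the other alternatives 36 to 44. At a −log10 q of at least 10, Grh-tied regions went from 3 to 1 and Zld-tied from 4 to 0, while Twi-tied stayed at 3. With every list limited to its 25397 best regions by −log10 q, Zld-tied went to 1. Under both settings the Twi-tied regions lay at mew and rhea and no longer at if, which had no tied region under the former and a Grh-tied one under the latter. Asking for 1 list instead of 2 gave more. Main lists alone gave 6 Grh-tied, 15 Zld-tied and 19 Twi-tied, and titration lists alone 9 Grh-tied, 10 Zld-tied and 4 Twi-tied. These settings ask for fewer lists on the same merged regions. By the rule no tied region can then be lost, so the counts can only stay or rise. Leaving out the Twi main list, an alternative chosen after seeing the data, gave 39 common regions and 3 Grh-tied, 5 Zld-tied and 3 Twi-tied. Counting only overlaps that cover 50% of the shorter region, or asking that DBD lists of another factor lack the region, changed no count of tied regions. Of the counts for single genes, 51 stayed within 1.5 times and 9 moved beyond it; mys had 4 common regions with 2 kb flanks and 1 in the gene body, and Fak had 11 with 10 kb flanks.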
